A study of Mus musculus with 6 samples.

Results

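The EGF family was examined through 10 genes of intestinal tissue: the ligand genes Areg, Ereg, Hbegf, Tgfa, Btc and Epgn, the receptor genes Egfr, Erbb2 and Erbb3, and the feedback inhibitor gene Errfi1. They were found by symbol among 55335 genes of a raw count table. The tissue came from mice with colitis that had been brought on by dextran sulfate sodium (DSS), which damages the gut epithelium. Libraries of WT mice (n = 3, genotype wild type) were compared with libraries of Trmt6-/- mice (n = 3). No label ties a library to a single mouse, so n counts libraries. All animals had colitis, so no value below compares colitis with health. Trmt6 encodes a subunit of the tRNA 1-methyladenosine methyltransferase. Strain, sex, age, the DSS schedule, the intestinal segment and the way in which the Trmt6 allele was made are not given in the sources used here.

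EGF family ligands are made as membrane-bound precursors that metalloproteases release, and they act on the same cell or its neighbours. Ligand binding pairs ERBB receptors, which then signal through the RAS-ERK and PI3K-AKT arms. In the intestine this signalling is known for driving crypt cell division and the repair of the epithelium after injury, and it is held in check by feedback inhibitors such as ERRFI1 (MIG6), which binds the EGFR kinase domain.

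Library totals ran from 15213972 to 16972758 counts, of which the 10 genes took between 0.0746% and 0.117%. Trmt6, the targeted gene (chromosome 2, 132804207 to 132816055), stood at 39.8 CPM (counts scaled to library size by TMM) in KO72, 34.2 in KO73 and 36.2 in KO75, against 30.9 in WT185, 18.7 in WT186 and 23.1 in WT187. The targeted transcript was thus no lower under the knockout label (log2 fold change 0.60 ± 0.21 SE, edgeR adjusted p = 0.335), and every direction below rests on the labels. KO and WT with a number name the libraries labelled Trmt6-/- and WT, and log2 fold changes are positive where KO libraries were higher. Epithelial markers were far above those of stromal and myeloid cells. Summed CPM of 9 epithelial markers ran from 11610 to 15200, against 2.31 to 8.38 for 7 fibroblast markers, 0.782 to 2.65 for 6 smooth muscle markers and 17.1 to 31.7 for 8 monocyte and macrophage markers. Squamous epithelial markers summed to 1.88 to 4.402 CPM, with Krt13, Krt6a, Trp63 and Sprr3 at 0 counts in all libraries. Mast cell markers summed to 16.0 to 63.6 CPM. Of the distal colon markers, Hoxd13, Hoxd12 and Hoxa13 had 0 counts. Aqp8 of that list reached 54.5 CPM in WT186 and stayed at or below 0.698 CPM in the KO libraries, whereas Car4 of the same list averaged 288 ± 126 CPM in KO and 149 ± 11.8 CPM in WT (SD, n = 3), with no overlap of the groups. The libraries also differed within each group. Crypt stem cell markers summed to 48.3 to 685 CPM in KO and 439 to 1813 CPM in WT libraries, and Paneth cell markers to 3582 to 6853 and 966 to 8088 CPM. Villus tip markers summed to 1728 to 4001 CPM in KO and 840 to 4258 CPM in WT, and T and NK cell markers to 77.6 to 679.5 and 252 to 941 CPM. Ileal markers summed to 179 to 832 CPM in KO and 35.6 to 813 CPM in WT, and proximal markers to 501 to 3728 and 1427 to 6102 CPM. A regional index, taken as the mean log2 CPM of 4 ileal markers (Slc51b, Fgf15, Fabp6, Slc10a2) less that of 4 proximal markers (Lct, Fabp1, Gata4, Cybrd1), was 0.61 in KO72, -1.004 in KO73 and -3.67 in KO75, against -1.69 in WT185, -7.41 in WT186 and -6.04 in WT187. Apart from WT185, which lay above KO75, every WT library had a lower index than every KO library. Markers within the lists disagreed. In WT187 the ileal marker Fgf15 stood at 3.54 CPM and Fabp6 at 0.12 CPM, whereas KO75 had 0 and 16.7 CPM. The proximal marker Cybrd1 was 0.839 CPM in WT187 and 21.7 CPM in WT186, whereas Lct was 2592 and 3192 CPM. Of the index markers, Slc51b (KO higher) and Gata4 (KO lower) themselves separated the groups. A fit with this index as covariate therefore cannot tell region from genotype in 6 libraries. In bulk RNA, fewer cells of a type and less RNA per cell cannot be told apart.

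None of the 9 members abundant enough to test passed an adjusted p of 0.05 in edgeR (percent of all tested genes past it: 0.0425%), and DESeq2 and limma-voom also called 0 of the 9. At an unadjusted p below 0.05 there were 2, Ereg and Btc, both higher in KO, beside 12.1% of all 14107 tested genes in either direction and 6.15% in that direction. Ereg, Btc and Erbb3 were higher in every KO library than in any WT library. These are 3 of 9, beside 18.7% of tested genes whose groups did not overlap and 9.70% with KO higher. Of the 9 log2 fold changes 6 were above 0, beside 46.1% of tested genes, with a median of 0.10 against -0.03 over all tested genes. Epgn was the member not tested.

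**Figure D1:**
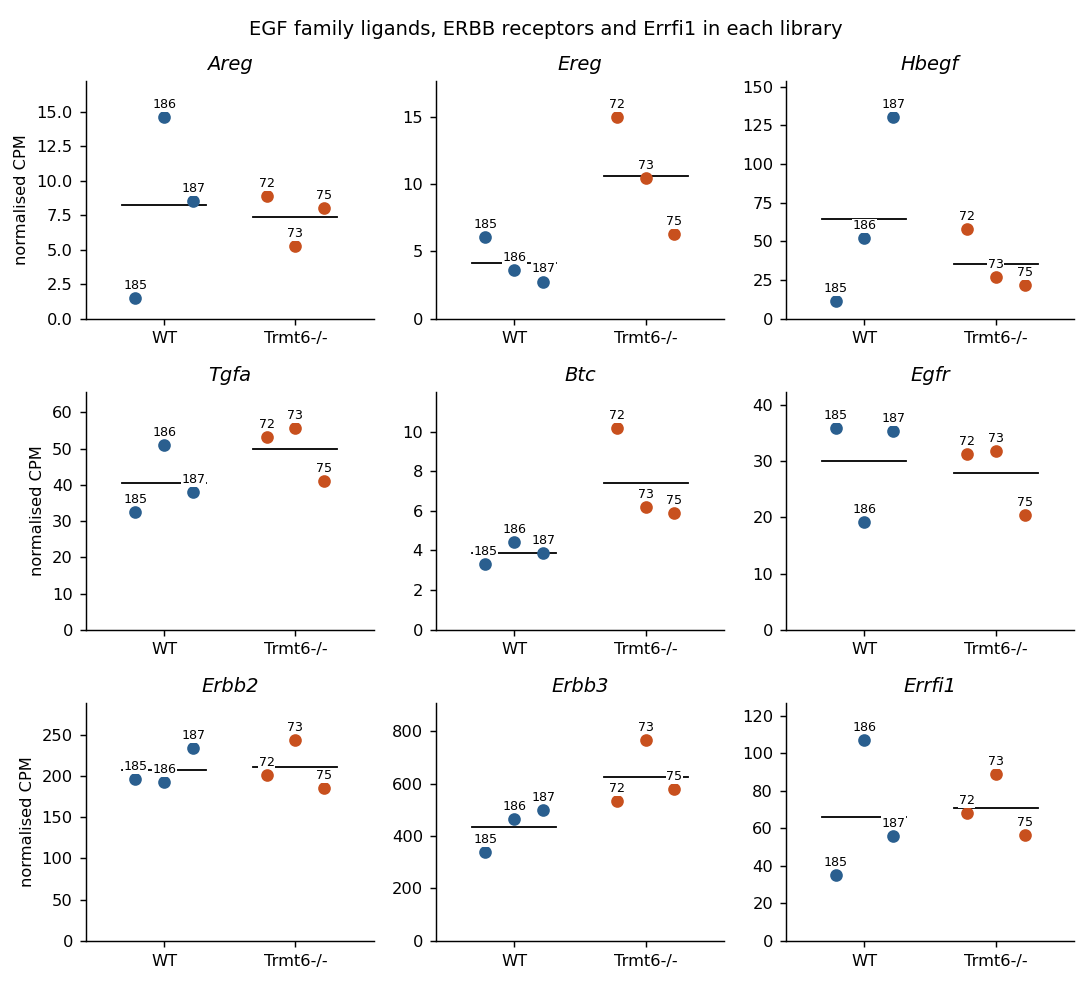
Normalised CPM (vertical axes, starting at 0) of the 9 tested genes in each library, labelled by the number in its name, with a bar at the group mean (n = 3 each). Ereg, Btc and Erbb3 show no overlap between groups, and the WT libraries of Areg and Hbegf span 9.66-fold and 11.6-fold.

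Transcript levels were compared between genes per length of exon, as RPKM (CPM per kilobase of the deposited gene length). Among the ligands the mean RPKM over 6 libraries was 10.4 for Hbegf, 6.98 for Tgfa and 6.41 for Areg, followed by 1.78 for Ereg, 1.25 for Btc and 0.0231 for Epgn. The lead of Hbegf rested on WT187: over the other 5 libraries, compared after the values were seen, Tgfa averaged 7.20 and Hbegf 7.04. The first 3 changed places from library to library. Hbegf gave 65.2% of the summed ligand RPKM in WT187 and 21.4% in WT185, Tgfa gave 46.4% in WT185 and 14.1% in WT187, and Areg gave 36.95% in WT186 and 11.5% in WT185. Ereg and Btc stayed below these 3 in every library except WT185, in which Ereg lay above Areg. Ereg gave 7.46% to 11.3% of ligand RPKM in KO libraries, and 13.7%, 2.69% and 1.62% in WT185, WT186 and WT187. Summed ligand RPKM was 33.4, 22.4 and 20.4 (KO72, KO73, KO75) against 10.8, 32.5 and 41.3 (WT185, WT186, WT187), so total ligand transcript overlapped between groups.

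Receptor transcripts kept 1 order in all 6 libraries, Erbb3 above Erbb2 above Egfr. Mean RPKM over 6 libraries was 88.2 for Erbb3, 40.1 for Erbb2 and 2.56 for Egfr. Egfr, whose product binds all of the member ligands, gave 1.36% to 3.26% of the summed receptor RPKM. Erbb3 RPKM was 32 to 53.2 times that of Egfr in KO libraries and 17.8 to 45.6 times in WT. The fourth receptor gene, Erbb4, had 0 counts in every library.

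**Figure D2:**
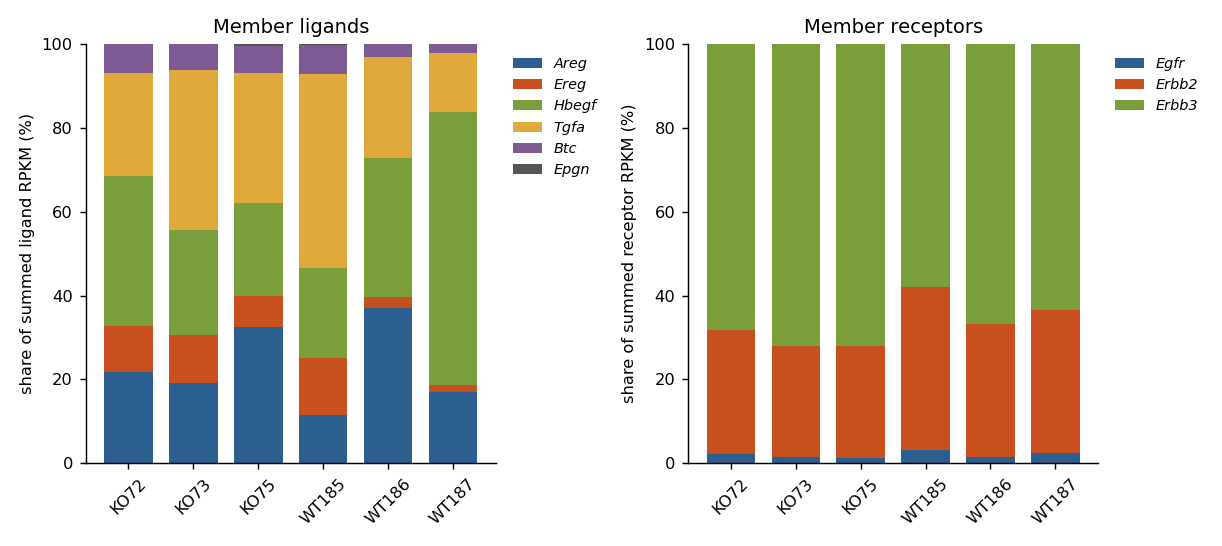
Share of summed RPKM (vertical axes, percent) taken by each ligand gene (left) and each receptor gene (right) in each library. Erbb3 is the largest receptor share throughout, from 57.9% in WT185 to 72.0% in KO75, whereas the leading ligand differs between libraries.

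Of the ligand genes, 4 lie together on chromosome 5 within 375.5 kb (GRCm38), in the order Epgn (91027464 to 91035215), Ereg (91074622 to 91093646), Areg (91139599 to 91148432) and Btc (91357261 to 91402994, on the opposite strand). The 3 other annotated genes contained in this span, Gm19610, Gm23092 and Gm19619, had 26, 0 and 0 counts over all libraries. Ereg and Btc had the same order of the KO libraries (KO72, KO73, KO75), all above the WT libraries, Areg did not, and Epgn had too few counts to rank. That order was not particular to the cluster. Egf on chromosome 3, given below, had it too, with all KO libraries above WT. Hbegf on chromosome 18 had the same order of KO libraries, though its groups overlapped. The regional index fell in this order as well.

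Ereg (ENSMUSG00000029377.5) encodes epiregulin, a ligand of EGFR and ERBB4. It stood at 14.96 CPM in KO72, 10.5 in KO73 and 6.26 in KO75, against 6.10 in WT185, 3.62 in WT186 and 2.76 in WT187. The groups did not overlap, but KO75 and WT185 nearly touched. Their counting intervals did overlap, at 5.02 to 7.72 CPM for KO75 (88 counts) and 5.04 to 7.31 CPM for WT185 (117 counts), exact Poisson intervals at 95% that cover counting error only. The mean was 10.6 ± 4.35 CPM (SD, n = 3) in KO and 4.16 ± 1.73 CPM in WT, a 2.54-fold difference (log2 fold change 1.34 ± 0.44 SE, 95% interval 0.30 to 2.39, edgeR adjusted p = 0.2996). Ereg was highest in the library with the highest regional index of each group, KO72 and WT185. With that index as a covariate its log2 fold change was 0.57 (edgeR adjusted p = 0.436). A noncoding gene on the other strand, Gm19610, shares 3.42% of the Ereg exon bases.

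Btc (ENSMUSG00000082361.6) encodes betacellulin, which also binds EGFR and ERBB4. Its level was 10.2 CPM in KO72, 6.22 in KO73 and 5.91 in KO75, against 3.33 in WT185, 4.43 in WT186 and 3.90 in WT187. KO72 stood well above the other 5 libraries, and KO75 was the KO library nearest to WT186. The mean was 7.43 ± 2.37 CPM (SD, n = 3) in KO and 3.89 ± 0.55 CPM in WT, a 1.91-fold difference (log2 fold change 0.94 ± 0.32 SE, 95% interval 0.17 to 1.70, edgeR adjusted p = 0.327). Without KO72 the log2 fold change was 0.65 (edgeR adjusted p = 0.598). With the regional index as covariate it was 0.85 (edgeR adjusted p = 0.351). Btc, unlike Ereg, was lowest in WT185, the WT library with the highest regional index.

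**Figure D3:**
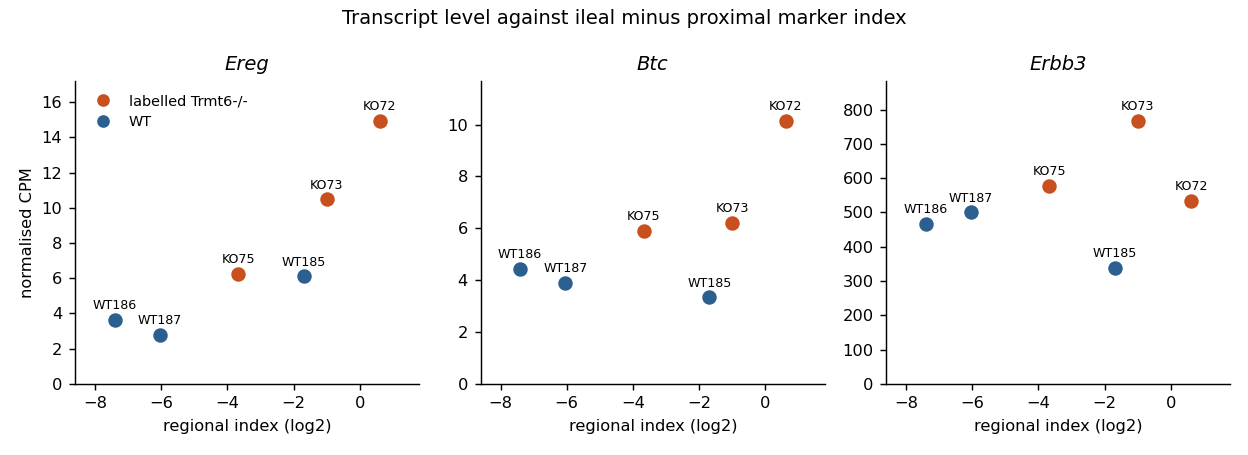
Normalised CPM (vertical axes) of Ereg, Btc and Erbb3 against the regional index of each library (horizontal axes, log2 units, ileal minus proximal markers); orange points are libraries labelled Trmt6-/- and blue points WT. Ereg is lowest in WT186 and WT187, which have the lowest index, and highest in KO72, which has the highest.

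Areg (ENSMUSG00000029378.5) encodes amphiregulin, an EGFR ligand known in the intestine for its induction after injury. It stood at 8.86 CPM in KO72, 5.24 in KO73 and 8.04 in KO75, against 1.51 in WT185, 14.6 in WT186 and 8.51 in WT187. Both the lowest and the highest library were WT, and all KO libraries lay between them. The counts behind these extremes were 29 in WT185 (95% exact Poisson interval 1.012 to 2.17 CPM) and 214 in WT186 (12.7 to 16.7 CPM), so the 9.66-fold span exceeded counting error. The group means were 7.38 ± 1.90 and 8.21 ± 6.55 CPM (SD, n = 3; log2 fold change -0.15 ± 0.71 SE, 95% interval -1.82 to 1.53, edgeR adjusted p = 0.964). The sign followed single libraries: the log2 fold change was -0.63 without WT185 and 0.58 without WT186. With the regional index as covariate it was 1.61 (edgeR adjusted p = 0.362).

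Epgn (ENSMUSG00000035020.11) encodes epigen, a low-affinity EGFR ligand. It had 4 counts in all, 3 in KO and 1 in WT libraries, and no fold is given at that depth.

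Errfi1 (ENSMUSG00000028967.10, chromosome 4, 150853919 to 150868892) had the same lowest and highest library as Areg. It stood at 67.9 CPM in KO72, 88.7 in KO73 and 56.4 in KO75, against 35.2 in WT185, 107 in WT186 and 55.9 in WT187. Again the WT libraries enclosed all KO libraries, here over a 3.05-fold span. The group means were 71.0 ± 16.4 and 66.1 ± 37.1 CPM (SD, n = 3; log2 fold change 0.10 ± 0.40 SE, 95% interval -0.84 to 1.05, edgeR adjusted p = 0.954). With the regional index as covariate the log2 fold change was 0.81 (edgeR adjusted p = 0.412), and without WT186 it was 0.65 (edgeR adjusted p = 0.446).

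Promoter sequences were compared for the 7 members with a RefSeq entry on GRCm38.p6. The windows shown are the 250 bases before the annotated start of Areg and Errfi1, chosen after their values were seen because both were lowest in WT185 and highest in WT186, and of Btc, which separated the groups. That trait was not particular to Areg and Errfi1. WT185 was also the lowest library for Hbegf, Tgfa, Btc and Erbb3, and the ERK phosphatase gene Dusp5, given below, shared both extremes. Capitals mark matches to 7 motifs searched on both strands: TATAAA (the core promoter element bound by TBP), TGANTCA (AP-1), TGACGTCA (cAMP response element), GGGCGG (GC box), CCAAT (bound by NF-Y), GGAATG (TEAD) and CACGTG (E-box).
Areg, chr5:91139349-91139598, plus strand: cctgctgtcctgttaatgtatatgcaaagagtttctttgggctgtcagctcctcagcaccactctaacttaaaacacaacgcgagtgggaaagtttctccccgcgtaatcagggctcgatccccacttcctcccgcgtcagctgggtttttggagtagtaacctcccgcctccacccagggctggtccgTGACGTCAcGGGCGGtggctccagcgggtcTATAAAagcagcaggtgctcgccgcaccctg
Errfi1, the second of 2 RefSeq windows, chr4:150854820-150855069, plus strand: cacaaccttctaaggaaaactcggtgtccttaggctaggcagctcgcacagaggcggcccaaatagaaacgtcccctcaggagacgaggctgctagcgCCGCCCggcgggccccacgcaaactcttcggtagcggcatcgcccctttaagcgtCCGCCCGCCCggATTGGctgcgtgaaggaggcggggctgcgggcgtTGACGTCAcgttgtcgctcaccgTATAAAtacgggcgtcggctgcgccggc
Btc, chr5:91402995-91403244, minus strand: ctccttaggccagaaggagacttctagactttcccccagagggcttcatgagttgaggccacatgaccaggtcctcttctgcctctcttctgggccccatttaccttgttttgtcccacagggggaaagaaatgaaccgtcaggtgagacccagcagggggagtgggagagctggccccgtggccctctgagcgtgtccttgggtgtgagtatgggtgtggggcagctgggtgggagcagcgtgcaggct
The Areg and Errfi1 windows both held TGACGTCA a short distance before the core promoter element named first above, at -61 to -54 and -31 to -26 in Areg and at -51 to -44 and -28 to -23 in Errfi1, counted from the base before the start as -1. Over 32851 promoter windows of the same length, TGACGTCA was found in 1.55% and that element in 12.4%. GGGCGG, found in 32.7% of windows, occurred in both as well, with 2 of its matches overlapping in Errfi1, and CCAAT, found in 33.8%, occurred in Errfi1. The Btc window matched none of the 7 motifs. The background shares of the AP-1, TEAD and E-box motifs were 6.75%, 12.6% and 6.02%. In the Errfi1 window 124 bases are also exon of 1700045H11Rik, an antisense gene. Among the other 4 members with an entry, TGACGTCA was not found in the windows of Tgfa, Epgn, Egfr or Erbb2, nor in the other RefSeq window of Errfi1, whose start lies outside the GENCODE M21 transcripts of the gene. The core promoter element was found in the window of Epgn at -86 to -81. A match describes letters in a window and is no evidence of binding.

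Hbegf (ENSMUSG00000024486.6, chromosome 18, 36504927 to 36515805) encodes heparin-binding EGF-like growth factor, a ligand of EGFR and ERBB4. From its lowest to its highest library it spanned 11.6-fold, the widest span of any tested member. Its level was 58.1 CPM in KO72, 27.2 in KO73 and 21.6 in KO75, against 11.2 in WT185, 52.1 in WT186 and 130 in WT187. WT187 stood highest and WT185 lowest, with all KO libraries between them. The group means were 35.6 ± 19.7 and 64.5 ± 60.5 CPM (SD, n = 3; log2 fold change -0.85 ± 0.80 SE, 95% interval -2.75 to 1.04, edgeR adjusted p = 0.754). Without WT187 the log2 fold change was 0.17, without WT185 it was -1.33 (edgeR adjusted p = 0.330), and with the regional index as covariate it was -0.08. The immediate early gene Fos likewise was highest in WT187 at 1124 CPM and lowest in WT185 at 212 CPM. Egr1 reached 194 CPM in WT187 and 157 CPM in KO72 against 29.2 to 44.7 CPM in the other libraries, but was lowest in WT186. Not all ERK-dependent targets given below were highest in WT187: Emp1 was highest in KO73 at 360 CPM and Ccnd1 in KO72 at 144 CPM.

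Hbegf, the ligand gene with the highest mean RPKM over all 6 libraries, though not without WT187, was searched for genes of like pattern among 10354 tested genes with a mean of at least 5 CPM. By Pearson correlation of log2 CPM over 6 libraries the nearest were Sprtn (r = 0.997), Tanc1 (r = 0.984) and the stress-induced transcription factor gene Atf3 (r = 0.973). Atf3 stood at 22.1 CPM in KO72, 8.38 in KO73 and 5.34 in KO75, against 3.96 in WT185, 13.9 in WT186 and 73.8 in WT187. Sprtn spanned only 24.2 to 31.5 CPM and Tanc1 43.2 to 51.4 CPM. With 6 points and this many genes searched, such values describe the ranking alone.

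Tgfa (ENSMUSG00000029999.14, chromosome 6, 86195223 to 86275719) encodes transforming growth factor alpha, an EGFR ligand made by the intestinal epithelium. It was the steadiest ligand transcript, at 53.3 CPM in KO72, 55.6 in KO73 and 41.2 in KO75, against 32.6 in WT185, 51.0 in WT186 and 37.9 in WT187. KO75 lay below WT186, so the groups overlapped. The means were 50.04 ± 7.74 and 40.5 ± 9.50 CPM (SD, n = 3; log2 fold change 0.31 ± 0.21 SE, 95% interval -0.20 to 0.81, edgeR adjusted p = 0.648).

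Among the receptors, Erbb3 (ENSMUSG00000018166.8, chromosome 10, 128567523 to 128589652) encodes a receptor with little kinase activity of its own that binds neuregulins and engages PI3K. It stood at 533 CPM in KO72, 768 in KO73 and 579 in KO75, against 338 in WT185, 466 in WT186 and 500.0 in WT187. The nearest libraries of the groups, KO72 and WT187, were separated beyond counting error (95% exact Poisson intervals 522 to 544 and 489 to 511 CPM). The means were 627 ± 125 and 435 ± 85.4 CPM (SD, n = 3), a 1.44-fold difference (log2 fold change 0.53 ± 0.24 SE, 95% interval -0.05 to 1.10, edgeR adjusted p = 0.461, unadjusted p = 0.0664). With the regional index as covariate the log2 fold change was 0.79 (edgeR adjusted p = 0.198). Erbb3 and Btc were both lowest in WT185.

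Erbb2 (ENSMUSG00000062312.5, chromosome 11, 98412470 to 98437716) encodes the receptor that has no known ligand and serves as the preferred partner of the others. It was 202 CPM in KO72, 244 in KO73 and 185 in KO75, against 196 in WT185, 192 in WT186 and 234 in WT187. This was the narrowest spread of any member, 1.32-fold from the lowest to the highest library. The means were 210 ± 30.4 and 207 ± 22.8 CPM (SD, n = 3; log2 fold change 0.02 ± 0.18 SE, edgeR adjusted p = 0.980), and the 95% interval of -0.40 to 0.44 bounds the difference. As a consequence of the 2 levels, the ratio of Erbb3 to Erbb2 RPKM was 2.29 in KO72, 2.73 in KO73 and 2.70 in KO75, against 1.49 in WT185, 2.10 in WT186 and 1.85 in WT187, a description for which no test was run.

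Egfr (ENSMUSG00000020122.16, chromosome 11, 16752203 to 16918158) stood at 31.3 CPM in KO72, 31.9 in KO73 and 20.5 in KO75, against 35.9 in WT185, 19.2 in WT186 and 35.3 in WT187. The groups overlapped fully, with both the highest and the lowest library in WT. The means were 27.9 ± 6.41 and 30.1 ± 9.44 CPM (SD, n = 3; log2 fold change -0.11 ± 0.29 SE, 95% interval -0.81 to 0.59, edgeR adjusted p = 0.926). Egfr ran opposite to Areg and Errfi1 at the extremes, highest in WT185 and lowest in WT186. With the regional index as covariate its log2 fold change was -0.57 (edgeR adjusted p = 0.323).

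**Figure D4:**
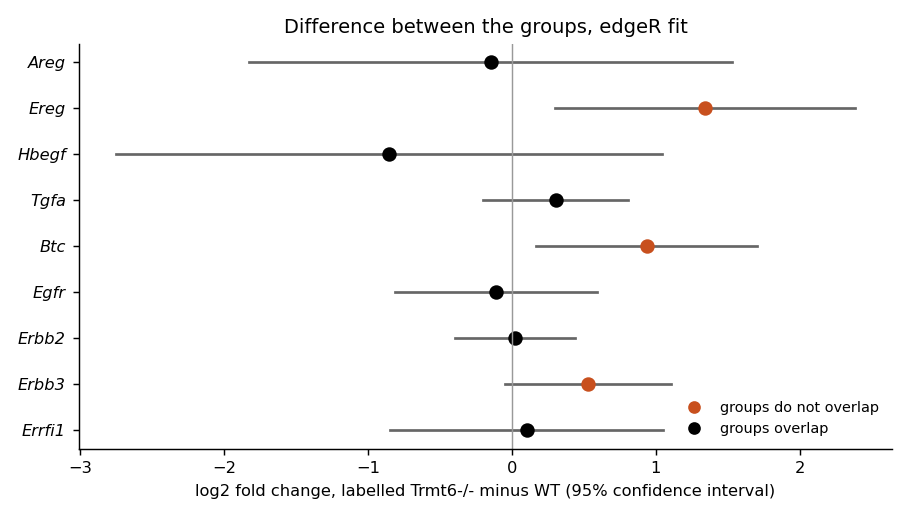
Log2 fold change of each tested member (points, KO minus WT, 3 libraries a group) with its unadjusted 95% confidence interval (lines); orange points are genes whose groups did not overlap in CPM. The intervals of Ereg and Btc lie above 0, that of Erbb3 starts at -0.05, and those of Hbegf and Areg are the widest.

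For Erbb3, the receptor gene with the highest mean RPKM, the genes nearest in pattern over the 6 libraries were Rassf7 (r = 0.995), Asap2 (r = 0.994) and Plekhg2 (r = 0.992). Plekhg2 ranged from 31.5 CPM in WT185 to 103 CPM in KO73. Rassf7 ran from 56.2 to 88.8 CPM and Asap2 from 53.8 to 100.1 CPM between the same libraries.

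The rest of the pathway was read from 7 gene lists holding 69 genes, of which 64 were tested. None passed an adjusted p of 0.05 in edgeR. At an unadjusted p below 0.05 there were 7 higher and 1 lower in KO (12.5%, beside 12.1% of all tested genes), and the groups did not overlap for 11 genes with KO higher and 6 with KO lower (26.6%, beside 18.7%). The median log2 fold change of the 64 genes was 0.05.

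Among the other ligands and the receptor of the family, 2 of 6 genes were tested. Nrg4, an ERBB4 ligand gene, averaged 6.34 ± 0.75 CPM in KO and 6.36 ± 3.10 CPM in WT (SD, n = 3; edgeR adjusted p = 0.998). Egf, which encodes the founding ligand, stood at 3.67 CPM in KO72, 2.58 in KO73 and 1.71 in KO75, against 1.51 in WT185, 0.273 in WT186 and 1.08 in WT187. Its groups did not overlap (log2 fold change 1.45 ± 0.62 SE, edgeR adjusted p = 0.420). The neuregulin genes Nrg1 and Nrg2 averaged at most 0.112 CPM in either group, and Nrg3, like Erbb4, had 0 counts. The abundant Erbb3 transcript was thus measured in libraries with almost no neuregulin 1 or 2 transcript. Fibroblast markers also summed to only 2.31 to 8.38 CPM in these libraries, so fibroblast transcripts were hardly sampled. Whether the neuregulin level depends on fibroblast content was not tested.

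All 8 genes of ligand shedding were tested (median log2 fold change 0.24), and 0 passed. Adam10, a metalloprotease that releases EGF and betacellulin, averaged 184 ± 8.29 CPM in KO and 146 ± 9.12 CPM in WT without overlap (log2 fold change 0.34 ± 0.14 SE, edgeR adjusted p = 0.402). Adam17, the main sheddase of amphiregulin, epiregulin, HB-EGF and TGF-alpha, averaged 40.8 ± 3.25 CPM in KO and 45.9 ± 0.987 CPM in WT, also without overlap but lower in KO (edgeR adjusted p = 0.683). The iRhom-binding protein gene Frmd8 averaged 92.0 ± 12.7 against 134 ± 44.99 CPM (edgeR adjusted p = 0.498), and the metalloprotease gene Adam9 51.4 ± 2.67 against 42.6 ± 0.362 CPM (edgeR adjusted p = 0.442). The unadjusted threshold was passed by Adam10 and Rhbdf1 with KO higher and by Adam15 with KO lower. Of all tested genes, 12.1% passed it in either direction.

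Of 10 receptor-level inhibitors and ubiquitin pathway genes, 0 passed at either the adjusted or the unadjusted threshold (median log2 fold change -0.08). Their 3 most abundant genes by RPKM were the ubiquitin ligase gene Cblc (68.4 ± 3.25 against 70.8 ± 15.8 CPM), the deubiquitinase gene Usp8 (77.0 ± 7.31 against 78.0 ± 6.76 CPM) and Socs4 (97.9 ± 6.59 against 111 ± 27.5 CPM). Each pair of means is KO before WT with SD over 3 libraries, and their edgeR adjusted p ran from 0.810 to 0.978.

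Of 17 adaptor and RAS-ERK cascade genes, 0 passed (median log2 fold change 0.08). The unadjusted threshold was passed by 2 with KO higher, Braf among them, beside 6.15% of all tested genes. Braf, which encodes a kinase that RAS activates, averaged 39.3 ± 1.93 CPM in KO and 30.5 ± 0.905 CPM in WT without overlap (log2 fold change 0.37 ± 0.13 SE, edgeR adjusted p = 0.332). Mapk3, which encodes ERK1 and had the highest RPKM of the list, averaged 351 ± 12.4 and 361 ± 42.7 CPM (edgeR adjusted p = 0.958). Map2k2, a kinase gene upstream of ERK, averaged 334 ± 65.6 and 238 ± 48.3 CPM (edgeR adjusted p = 0.487). Of 8 genes of the PI3K-AKT arm, 0 passed at either threshold (median log2 fold change -0.03). Akt1 averaged 146 ± 9.05 and 139 ± 27.7 CPM, Pik3r2 94.3 ± 7.85 and 96.7 ± 14.97 CPM, and Pik3r1 137 ± 21.1 and 156 ± 18.9 CPM.

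Genes that ERK signalling can induce were read next, while ERK activity itself was not measured. Of 8 feedback genes 0 passed at either threshold (median log2 fold change 0.26). Dusp6, an ERK phosphatase gene, stood at 39.1 CPM in KO72, 54.2 in KO73 and 55.0 in KO75, against 23.4 in WT185, 73.5 in WT186 and 90.3 in WT187. Dusp5, a nuclear ERK phosphatase gene, had 18.9, 19.2 and 27.5 CPM, then 9.85, 44.3 and 25.2 CPM, in the same order. Both were lowest in WT185, as Areg, Hbegf, Tgfa, Btc, Erbb3 and Errfi1 were, and WT libraries enclosed all KO libraries. Spred2, an inhibitor of RAS signalling, averaged 53.3 ± 9.68 and 43.6 ± 5.57 CPM (SD, n = 3; edgeR adjusted p = 0.611).

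Of 12 further ERK-dependent target genes 11 were tested and 0 passed (median log2 fold change 0.21). Emp1, Phlda1 and Plaur passed the unadjusted threshold, all 3 with KO higher and without overlap. Over all tested genes, 6.15% passed it with KO higher, and 9.7% had KO higher without overlap. Emp1, a membrane protein gene, stood at 332 CPM in KO72, 360 in KO73 and 316 in KO75, against 123 in WT185, 264 in WT186 and 148 in WT187 (log2 fold change 0.92 ± 0.30 SE, edgeR adjusted p = 0.2996). Fos averaged 435 ± 121 CPM in KO and 547 ± 502 CPM in WT (SD, n = 3; edgeR adjusted p = 0.892). Ccnd1, which encodes cyclin D1, averaged 92.4 ± 44.9 and 92.1 ± 55.2 CPM (edgeR adjusted p = 0.997), and its lowest library was WT186 at 29.1 CPM. Whether the differing content of crypt, Paneth and villus cells contributes to any of these values was not tested.

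**Figure D5:**
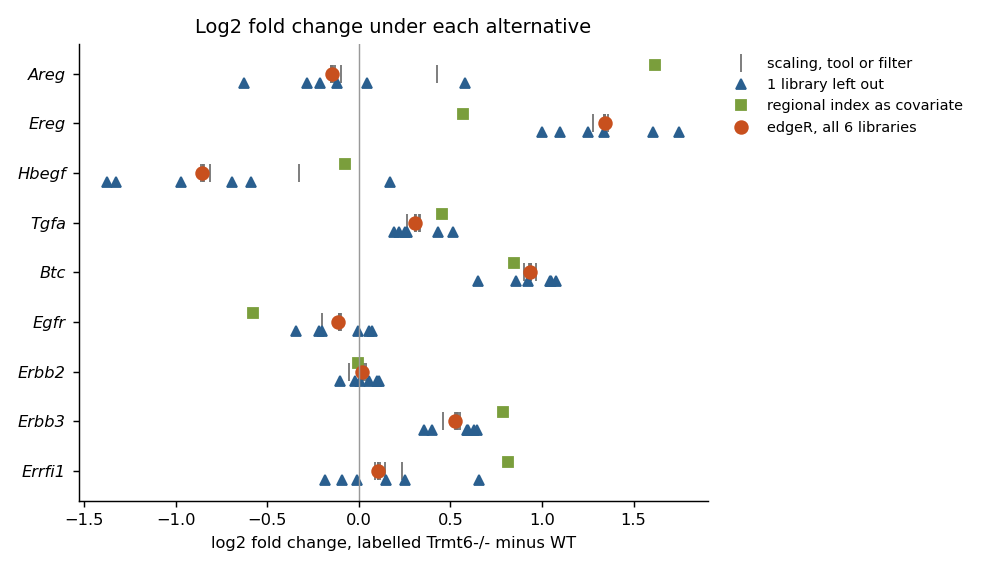
Log2 fold change (horizontal axis, KO minus WT) of each tested member with all 6 libraries in edgeR (circles), with 1 library left out (triangles), with another scaling, tool or filter (ticks) and with the regional index as covariate (squares). Ereg, Btc, Tgfa and Erbb3 stay above 0 under all alternatives shown, and Areg, Hbegf, Egfr, Erbb2 and Errfi1 cross 0.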

How the data were processed

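RNA from intestinal tissue of mice with colitis was sequenced after cDNA amplification, per the labels' protocols. The authors deposited raw counts, which per the file headers came from featureCounts 2.0.1 on GENCODE M23 exons without a strand option, so antisense reads cannot be told apart. The submitters' processing notes name fastp, HISAT2 and mm10. Deposited gene lengths (unit: other) served only to scale CPM per kilobase. Column names give the group and a number that no label explains. The labels speak of 3 mice a group but tie no library to a mouse, so p-values measure only the spread between these samples, which may be technical.

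GENCODE M21, built on the same assembly, gave the symbols (55154 of 55335 identifiers matched). No pair of libraries was a duplicate (chi-square per degree of freedom 44.1 to 199). After filterByExpr and TMM scaling, genes entered the two-sided quasi-likelihood F test of edgeR 4.0.16 (R 4.3.3), with genotype as the only term and Benjamini-Hochberg adjustment over 14107 genes. SE is the log2 fold change divided by the square root of F, and 95% intervals are unadjusted. The fit was tested on data simulated with a smaller spread than these libraries had (biological coefficient of variation 0.34). That simulation does not show how many changes would be found here. Alternatives were RLE, library totals, upper-quartile scaling, DESeq2 1.42.0, limma-voom (limma 3.58.1), 2 other filters (no low-count filter, or 1 CPM in 3 libraries), each library left out and a regional covariate. Correlations used log2(CPM + 0.5).

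Named besides members were the 3 genes of each list with the highest RPKM, all of the list of other ligands, any gene past the threshold, and the 3 genes nearest in pattern to the top ligand and receptor. Egr1 and Adam17, and the genes past an unadjusted p, were chosen after their values were seen. A pathway gene that the rule names is not reported here. Members and lists were chosen with earlier results of these data known. Intervals cover counting error only, since PCR copies were not marked.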

Additional observations from a re-analysis of the deposited data

How the results depend on the processing

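No paired analysis was possible because the column names hold numbers that the groups do not share and cannot be tied to the replicates of the labels. None of the 9 tested members passed an adjusted p of 0.05 under any of the 14 alternatives. Over all genes, 6 passed, against 0 with library totals, 633 with DESeq2 (375 higher in KO), 0 with limma-voom, 159 without a low-count filter (107 higher in KO) and 0 with the regional covariate. RLE, upper-quartile scaling and the 1 CPM filter gave 6, 4 and 6. Leaving out 1 library gave 0 to 6: 0 without KO73, KO75, WT186 or WT187, 2 without WT185 and 6 without KO72. The cause was not tested. Ereg (0.57 to 1.75), Btc (0.65 to 1.08), Tgfa (0.19 to 0.52) and Erbb3 (0.36 to 0.79) kept a log2 fold change above 0 in all 14, with adjusted p from 0.078 to 0.695 for Ereg, from 0.093 to 0.647 for Btc and from 0.198 to 0.903 for Erbb3. Trmt6 stayed between 0.31 and 0.84. Signs turned as follows, in log2 fold change. With library totals, Erbb2 was -0.055, Akt1 -0.024 and Ccnd1 -0.078. With upper-quartile scaling, Nrg4 was 0.031 and Usp8 0.0041. Nrg4 was 0.000103 in DESeq2 and 0.0067 without a low-count filter. In limma-voom, Areg was 0.43, Nrg4 0.13, Dusp5 0.0061 and Fos 0.0044. With the regional covariate, Areg was 1.61, Erbb2 -0.0044, Nrg4 0.69, Cblc 0.27, Usp8 0.15, Socs4 0.19, Mapk3 0.054, Akt1 -0.13, Pik3r2 0.11, Dusp6 0.77, Dusp5 1.003, Fos 0.14 and Ccnd1 -0.80. With 1 library left out, the range was -0.63 to 0.58 for Areg, -1.37 to 0.17 for Hbegf, -0.34 to 0.074 for Egfr, -0.10 to 0.11 for Erbb2, -0.18 to 0.65 for Errfi1, -0.24 to 0.47 for Nrg4, -0.19 to 0.12 for Cblc, -0.094 to 0.063 for Usp8, -0.090 to 0.072 for Mapk3, -0.053 to 0.25 for Akt1, -0.13 to 0.061 for Pik3r2, -0.71 to 0.027 for Dusp6, -0.65 to 0.34 for Dusp5, -0.69 to 0.74 for Fos and -0.46 to 0.33 for Ccnd1. Depth limits Epgn (4 counts in all), and the gap between the nearest KO and WT libraries of Ereg and Btc lay within counting error.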
